A study of Mus musculus with 4 samples.

Results

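The genes described here are 10 that mark mast cells, 7 coding for proteases of the secretory granule (Tpsab1, Tpsb2, Cma1, Mcpt1, Mcpt2, Mcpt4 and Cpa3) and 3 for receptors (Fcer1a, Kit and Il1rl1). They were chosen by name, and all 10 had a row among the 23242 rows of the deposited table. RNA was sequenced from prostate, the ventral and dorsal lobes of FVB mice, in 2 TMPRSS2:ERG homozygotes (numbered 26 and 29) and 2 wild-type animals (numbered 27 and 28). The transgene is a bacterial artificial chromosome with the TMPRSS2 locus, into which a cassette with human ERG exons was placed; ERG belongs to the ETS transcription factors. A GFP cassette flanked by loxP sites was removed with Cre protein, and the homozygotes descend from a single sub-line of a single founder line. The transgene is in the germline, so every cell of a homozygote carries it, under the TMPRSS2 sequences of the artificial chromosome. Wild-type animals are ERG negative by label, and the labels state no ages.

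Mast cells are tissue-resident leukocytes of connective tissue and mucosa. They grow under Kit ligand, which binds the receptor tyrosine kinase Kit, carry IgE on the high-affinity Fc epsilon receptor, and respond to interleukin 33 through its receptor Il1rl1. Their granules store tryptases, chymases and carboxypeptidase A3 bound to the proteoglycan serglycin and are emptied on activation. In mice, Mcpt4, Cma1, Tpsb2 and Cpa3 are typical of connective-tissue mast cells, and Mcpt1 and Mcpt2 of mucosal mast cells. Mast cells are a minor population of the stroma of the prostate.

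The members lie at 6 places in the genome (mm10, starts counted from 1). Tpsab1 (Entrez 100503895, chromosome 17, 25343245 to 25345562) and Tpsb2 (Entrez 17229, chromosome 17, 25366333 to 25368092) are neighbours in the tryptase locus. Cma1 (Entrez 17228, chromosome 14, 55941451 to 55944661), Mcpt1 (Entrez 17224, chromosome 14, 56017964 to 56020391), Mcpt2 (Entrez 17225, chromosome 14, 56042123 to 56044634) and Mcpt4 (Entrez 17227, chromosome 14, 56059744 to 56062310) share the chymase locus. Cpa3 (Entrez 12873) lies on chromosome 3, from 20215616 to 20242181. Kit (Entrez 16590) lies on chromosome 5, from 75574987 to 75656721. Fcer1a (Entrez 14125, chromosome 1, 173221271 to 173227229) and Il1rl1 (Entrez 17082, chromosome 1, 40439649 to 40465414) are far apart on the same chromosome. No member's interval overlaps another row of the table.

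Promoter sequence was at hand for 7 of the 10 genes, in RefSeq windows of build GRCm38.p6, and the 250 bases before the start are printed for 4 proteases. Mcpt4 and Mcpt1 are shown because they are close relatives at very unequal levels, and Cma1 and Cpa3 because they are abundant in homozygotes. The sequences are of the C57BL/6J reference, not of FVB mice. Capitals mark matches on either strand to the letters AGATAA, a core sequence bound by GATA factors. They also mark CATGTG, an E-box of the kind bound by MITF, and likewise the ETS core AGGAAG. The shorter GATAA, which lies inside the first of these, was added after the sequences had been seen. The windows are Mcpt4 (chr14:56062311-56062560, minus strand), Mcpt1 (chr14:56017714-56017963, plus strand), Cma1 (chr14:55944676-55944925, minus strand) and Cpa3 (chr3:20242182-20242431, minus strand).
Mcpt4: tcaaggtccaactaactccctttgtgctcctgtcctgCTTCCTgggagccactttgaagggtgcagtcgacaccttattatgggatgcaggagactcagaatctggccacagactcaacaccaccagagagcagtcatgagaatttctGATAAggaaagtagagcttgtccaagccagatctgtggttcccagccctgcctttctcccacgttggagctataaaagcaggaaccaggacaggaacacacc
Mcpt1: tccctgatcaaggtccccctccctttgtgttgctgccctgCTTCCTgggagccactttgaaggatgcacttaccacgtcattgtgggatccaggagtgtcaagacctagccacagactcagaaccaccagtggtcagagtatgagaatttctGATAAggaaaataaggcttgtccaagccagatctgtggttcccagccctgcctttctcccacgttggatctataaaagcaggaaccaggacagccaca
Cma1: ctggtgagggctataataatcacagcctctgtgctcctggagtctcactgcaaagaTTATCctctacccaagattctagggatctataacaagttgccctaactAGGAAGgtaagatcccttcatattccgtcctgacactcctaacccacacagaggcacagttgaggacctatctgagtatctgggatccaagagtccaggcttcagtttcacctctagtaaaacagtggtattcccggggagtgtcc
Cpa3: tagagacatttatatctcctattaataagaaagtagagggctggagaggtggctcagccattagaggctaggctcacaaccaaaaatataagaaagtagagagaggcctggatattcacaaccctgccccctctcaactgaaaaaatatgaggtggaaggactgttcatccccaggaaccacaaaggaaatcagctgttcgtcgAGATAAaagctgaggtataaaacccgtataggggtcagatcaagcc

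The Mcpt4 and Mcpt1 windows were 86.4% identical over 242 aligned bases, with a longest identical run of 53 bases. Both hold GATAA, 102 bases before the start in Mcpt4 and 98 bases before it in Mcpt1, and both hold AGGAAG on the opposite strand, at 213 and 210 bases. In Cpa3 the letters AGATAA begin 46 bases before the start. Of the 7 genes, 6 had GATAA in a window (Cma1, Cpa3, Fcer1a, Il1rl1, Mcpt1 and Mcpt4), where 22.5% of 32536 RefSeq windows of the same length hold it. AGATAA was in 3 of the 7 (Cpa3, Fcer1a and Il1rl1; 9.97% of all windows), AGGAAG in 4 (Cma1, Kit, Mcpt1 and Mcpt4; 29.6%) and CATGTG in 1 (Fcer1a; 12.3%). The 7 genes have 9 windows, so a count of genes and a share of windows are unlike measures, and nothing is read from their difference. A match describes these letters and is not a binding site.

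Levels are given as scaled FPKM, the deposited FPKM (fragments per length of transcript and sequencing depth) divided by a factor per library that equalises typical genes. The members were chosen with the comparison of homozygotes and wild types already known, so their values in it are described and not tested. In bulk tissue, fewer cells of a type and less RNA per cell cannot be told apart. The labels give each library its own mouse, and pairs of values below run in the order 26, 29 for homozygotes and 27, 28 for wild types. How the authors assigned fragments shared by related transcripts is not stated. The best-aligned transcripts of Tpsab1 and Tpsb2 were 76.3% identical over 824 bases, with a longest shared run of 39 bases. Those of Mcpt1 and Mcpt4 were 85.8% identical (959 bases, longest run 46), of Mcpt1 and Mcpt2 82.6% (960 bases, longest run 49) and of Mcpt2 and Mcpt4 80.1% (953 bases, longest run 33). Values of these genes are therefore uncertain to the extent that fragments were split between copies.

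Among the members above 0 in wild types, the tryptases had the largest ratios between genotypes. Tpsab1, which codes for the tryptase known in mice as mast cell protease 7, was at 120 and 91.1 scaled FPKM in homozygotes, against 0.789 and 0.978 in wild types. Both homozygotes lay far above both wild types. The means were 105 ± 20.1 in homozygotes and 0.884 ± 0.133 in wild types (SD, n = 2 each), a ratio of 119, and the difference on the log2(scaled FPKM + 1) scale was 5.81 (SE 0.207). Tpsb2, the tryptase known as mast cell protease 6, was at 55.7 and 44.3 scaled FPKM in homozygotes, against 1.60 and 1.79 in wild types. Its means were 49.99 ± 8.05 in homozygotes and 1.69 ± 0.134 in wild types (SD, n = 2 each), a ratio of 29.5. The order of the tryptases was turned round: the Tpsab1 level was 2.15 and 2.06 times that of Tpsb2 in homozygotes, against 0.493 and 0.546 times in wild types.

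The chymases fell into genes that were already transcribed in wild-type prostate and genes that were listed at 0 there. Cma1, a chymase of connective-tissue mast cells known in mice as mast cell protease 5, was at 42.5 and 29.8 scaled FPKM in homozygotes, against 1.88 and 2.01 in wild types, a ratio of means of 18.6. Mcpt4, the chymase nearest in function to human chymase, was at 38.5 and 30.6 scaled FPKM in homozygotes, against 3.20 and 4.43 in wild types, a ratio of 9.05. Neither gene's groups overlapped, and Mcpt4 had the smallest ratio among the proteases with a wild-type value above 0. Mcpt2, typical of mucosal mast cells, was at 7.45 and 7.30 scaled FPKM in homozygotes and was listed at 0 in both wild types; the homozygous values stand for about 362 and 420 fragments at the estimated depth. Mcpt1, its close relative, was at 0.0391 and 0.0371 in homozygotes and was also listed at 0 in both wild types. At the estimated depth the Mcpt1 values stand for about 1.81 and 2.04 fragments, so this gene was near the limit of detection in every library.

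Cpa3, the carboxypeptidase that mast cell granules share with the chymases, was at 35.7 and 30.5 scaled FPKM in homozygotes, against 1.90 and 2.21 in wild types. The homozygous libraries again lay apart from the wild-type ones. The means were 33.1 ± 3.64 in homozygotes and 2.05 ± 0.224 in wild types (SD, n = 2 each), a ratio of 16.1.

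**Figure D1:**
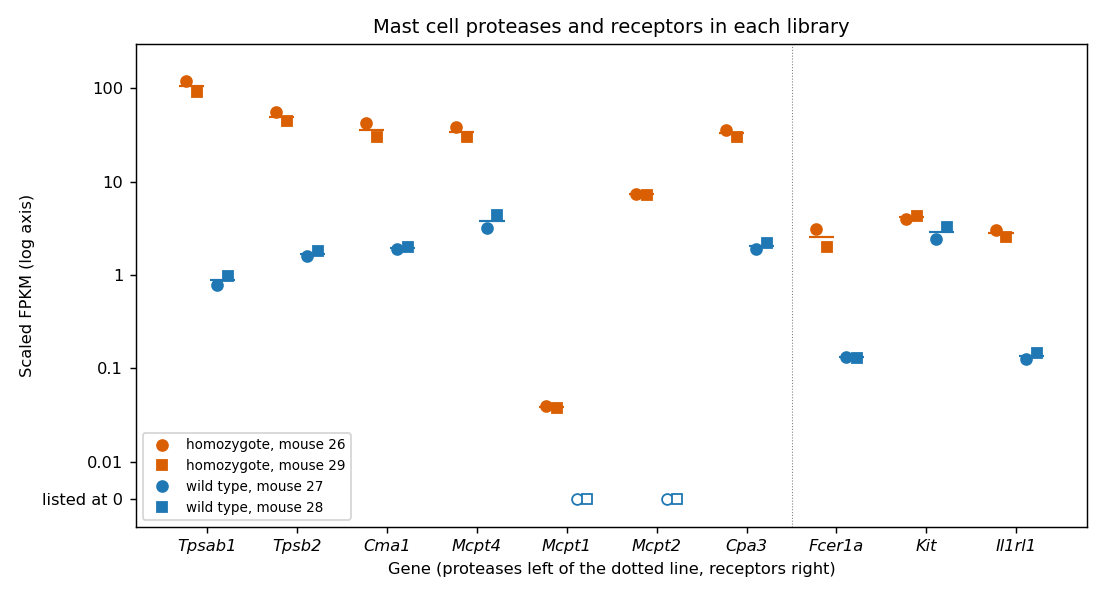
Scaled FPKM (log axis) of the 10 genes in each library, homozygotes in orange left of wild types in blue, with circles and squares for the mice and a line for the mean of 2. The homozygotes lie above the wild types in all 10 genes, by the least in Kit, and open symbols mark Mcpt1 and Mcpt2 in wild types, which were listed at 0.

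The makeup of the protease transcripts differed along with their sum. The 7 proteases summed to 299 and 234 scaled FPKM in homozygotes, against 9.37 and 11.4 in wild types. Tpsab1 made up 39.9% and 39.0% of that sum in homozygotes, against 8.42% and 8.56% in wild types. Mcpt4 made up 12.9% and 13.1% in homozygotes, against 34.2% and 38.8% in wild types. Tpsab1 thus held the largest share in the homozygous libraries and Mcpt4 in the wild-type libraries. Set against Cpa3 within each library, the Cma1 level was nearly even, at 1.19 and 0.977 times that of Cpa3 in homozygotes and 0.994 and 0.909 times in wild types. The Tpsb2 level was 1.56 and 1.45 times that of Cpa3 in homozygotes, against 0.844 and 0.809 times in wild types. Since all values are per length, these ratios compare levels between genes, but they rest on the same libraries and contrast that chose the genes.

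**Figure D2:**
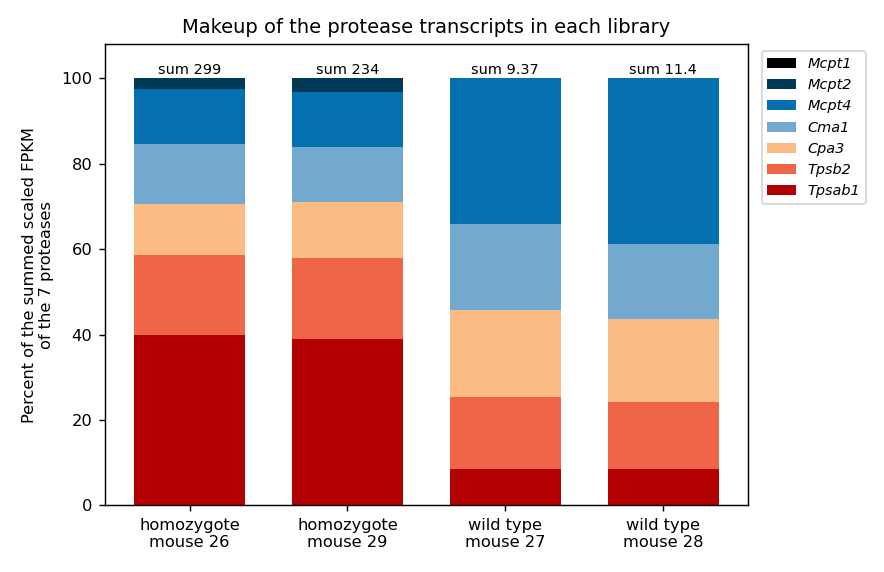
Percent of the summed scaled FPKM of the 7 proteases held by each gene, in the homozygous libraries (left) and the wild-type libraries (right), with the sum above each bar. Tpsab1 holds 39.9% and 39.0% in homozygotes and 8.42% and 8.56% in wild types, while the Mcpt4 share is larger in wild types.

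The receptors were at lower levels than the main proteases and behaved unequally. Fcer1a, the chain of the Fc epsilon receptor that binds IgE, was at 3.08 and 1.98 scaled FPKM in homozygotes, against 0.132 and 0.130 in wild types, a ratio of means of 19.3. Its wild-type values stand for about 5 and 5.52 fragments at the estimated depth. Il1rl1, the interleukin 33 receptor, was at 3.06 and 2.54 scaled FPKM in homozygotes, against 0.125 and 0.147 in wild types, a ratio of 20.6. Both receptors were thus far higher in the homozygous libraries and close to 0 in the wild-type libraries. Kit, the receptor for Kit ligand, which is also found on melanocytes, interstitial cells and some epithelial cells, was at 3.99 and 4.32 scaled FPKM in homozygotes, against 2.46 and 3.28 in wild types. Its groups did not overlap either, but the ratio of means was 1.45, the log2 difference ran from 0.27 to 0.57 when a single mouse was left out, and in wild types Kit was at a higher level than 8 of the 9 other genes.

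In homozygotes the order of mean levels ran from Tpsab1 and Tpsb2 through Cma1, Mcpt4 and Cpa3 to Mcpt2, Kit, Il1rl1, Fcer1a and Mcpt1. The libraries of Cma1 and Mcpt4, of Mcpt4 and Cpa3, and of Il1rl1 and Fcer1a overlapped, so these neighbours did not differ beyond their spread. In wild types the order ran from Mcpt4, Kit, Cpa3, Cma1, Tpsb2 and Tpsab1 to Il1rl1 and Fcer1a, with Mcpt1 and Mcpt2 listed at 0. There the values of Mcpt4 and Kit, of Cpa3 and Cma1, and of Il1rl1 and Fcer1a overlapped across mice. Within each wild-type library, though, Mcpt4 lay above Kit (3.20 against 2.46 in mouse 27, 4.43 against 3.28 in mouse 28).

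Over all 10 genes, both homozygotes lay above both wild types in each, while this held for 22.1% of the 17902 rows above 0 in some library and 25.3% of the genes tested. A difference of at least 1 on the log2 scale, higher in homozygotes, was found in 8 of the 10 (not in Kit, at 0.42, nor in Mcpt1), and in 2.44% of the 11762 genes tested. The members were chosen for this contrast, so nothing is read from either count. Of the 10 genes, 9 passed the filter on low values (a mean of at least 1 scaled FPKM over the 4 libraries) and Mcpt1 did not. Of the 9, 4 had a wild-type mean under 1 and passed through the homozygotes alone (Tpsab1, Mcpt2, Fcer1a and Il1rl1). The log2 scale with 1 added understates differences of low genes: with 0.1 added in its place the difference was 3.48 for Fcer1a, against 1.62 with 1, and 3.61 for Il1rl1, against 1.74. The authors' deposited table gives log2 folds of 6.85 for Tpsab1, 4.87 for Tpsb2, 4.35 for Il1rl1, 4.22 for Fcer1a, 4.15 for Cma1, 3.97 for Cpa3, 3.09 for Mcpt4 and 0.54 for Kit, homozygote over wild type.

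**Figure D3:**
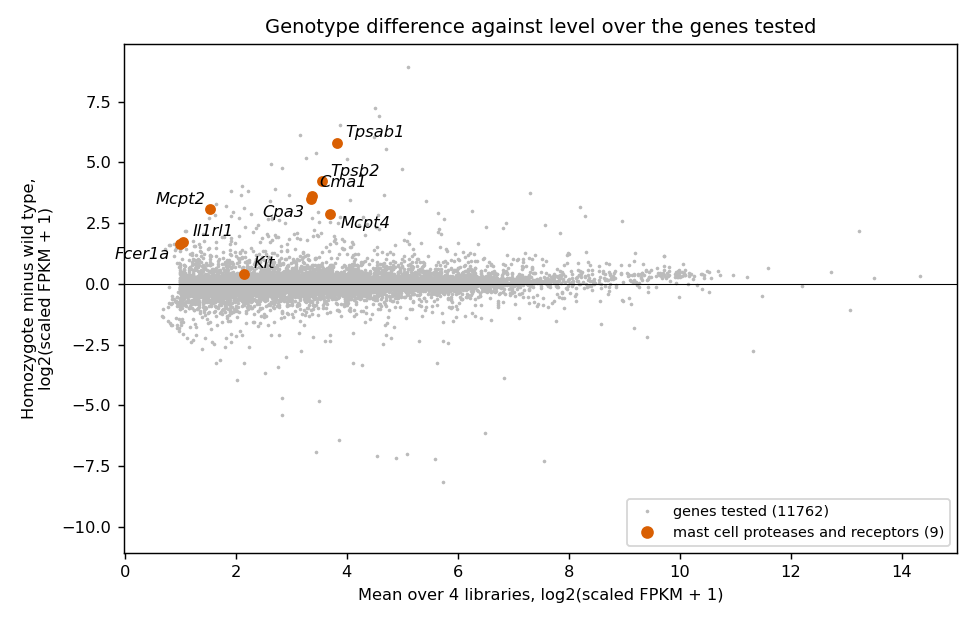
Difference between homozygotes and wild types against the mean level over 4 libraries, both as log2(scaled FPKM + 1), for the 11762 genes tested (grey) and the 9 members among them (orange). Tpsab1 lies at 5.81, the other proteases between 2.89 and 4.23, and Kit at 0.42, near the cloud of other genes.

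The profile most like that of Tpsab1 over the 4 libraries, by Euclidean distance of centred log2 values, was not that of a mast cell gene. The 5 nearest of the genes tested were Otos (distance 0.532), Rian (0.768), Gm5325 (0.797), Abpd (0.846) and Dcpp1 (0.866). The nearest member was Tpsb2, at rank 12 (distance 1.58), and Kit was at rank 1020. With 2 libraries a genotype this measure mainly orders genes by the size of their difference.

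Other genes of mast cells were taken from a list of 30 that held no member. The list was written with earlier results of these data known, so its counts are descriptions beside the shares over all genes. Of its 14 tested genes, 3 rose in homozygotes by limma (adjusted p under 0.05) and 0 fell, while 4.65% of all genes tested rose and 3.00% fell. At an unadjusted p under 0.05, 5 of the 14 were higher and 3 lower. The share of all genes under that threshold was not counted, so nothing is read from such counts, here or below. The median difference over the 14 was 0.21 on the log2 scale, against -0.003 over all genes tested. Srgn, which codes for the serglycin core that packs granule proteases, rose to 24.7 and 23.0 scaled FPKM in homozygotes, against 8.59 and 7.54 in wild types (log2 difference 1.46, SE 0.113, limma adjusted p = 0.00205). Lat2, an adaptor of Fc receptor signalling, rose to 3.89 and 3.39 scaled FPKM in homozygotes, against 0.846 and 0.579 in wild types (1.44, SE 0.141, adjusted p = 0.00442). Alox5, the 5-lipoxygenase of leukotriene synthesis, rose by 0.99 (SE 0.156, adjusted p = 0.0211), a call lost without homozygous mouse 26 (adjusted p = 0.106) and without mouse 29 (0.051). Without wild-type mouse 27, 5 of these genes were called higher and 1 lower, and without wild-type mouse 28 4 were called higher and 1 lower. Lat2 and Alox5 had wild-type means under 1 (0.712 and 0.714 scaled FPKM) and passed the filter on low values through the homozygotes alone. Srgn and Alox5 are also used by other leukocytes. In every gene named here and below as called with all 4 libraries, both homozygotes lay on the same side of both wild types.

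Much of that list lay under the filter, and several of its most specific genes differed at low levels; the genes named next were chosen after their values were seen. Without a filter, 9 of the 29 list genes above 0 were called higher by limma, while 2.54% of all 17902 genes were. They were Ms4a2, Mrgprb1, Mrgprb2, Cma2, Tpsg1 and Tal1 besides Srgn, Lat2 and Alox5. Ms4a2, the beta chain of the Fc epsilon receptor, was at 1.53 and 1.03 scaled FPKM in homozygotes, against 0.0578 in wild-type mouse 27, and was listed at 0 in wild-type mouse 28. Mrgprb2, a receptor of mast cells for basic peptides, was at 0.835 and 0.835 in homozygotes, against 0.0407 and 0.114 in wild types. The chymase gene Cma2 was at 1.51 and 1.24 in homozygotes, against 0.0547 and 0.113 in wild types. In each of these genes the genotypes did not overlap.

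Other genes that mast cells depend on were not called. Hdc, which makes histamine, lay under the filter on low values and was not tested in the main fit. Its level was 0.662 and 1.31 scaled FPKM in homozygotes, against 1.55 and 0.387 in wild types, and the groups overlapped. Without a filter limma gave 0.06 for Hdc (adjusted p = 0.951). Gata2, a transcription factor of mast cells and their precursors that was abundant in all libraries, was at 40.0 and 47.4 scaled FPKM in homozygotes, against 42.9 and 49.1 in wild types (log2 difference -0.08, limma adjusted p = 0.828). Mitf gave 0.17 (adjusted p = 0.496). Fcer1g, the signalling chain that the Fc epsilon receptor shares with other Fc receptors, was at 5.5 and 4.29 in homozygotes, against 3.36 and 1.98 in wild types (0.70, adjusted p = 0.135). Genes of the same list went the other way too. Tph1, which makes serotonin, was at 1.82 and 1.92 in homozygotes, against 4.62 and 2.90 in wild types (-0.71, adjusted p = 0.101). Rab27b, a GTPase of granule release, gave -0.51 (adjusted p = 0.101), and Ndst2, an enzyme of heparin synthesis, gave -0.33 (adjusted p = 0.233); these are the 3 lower genes counted above at an unadjusted p under 0.05. Gzmb, which codes for granzyme B, was not tested and was at 0.473 and 0.324 in homozygotes, against 1.47 and 0.708 in wild types. These genes were also named after their values were seen. In bulk tissue the source cells of a transcript are not known, so the Gata2 and Rab27b values need not come from mast cells. A p that misses the threshold does not show equal levels.

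**Figure D4:**
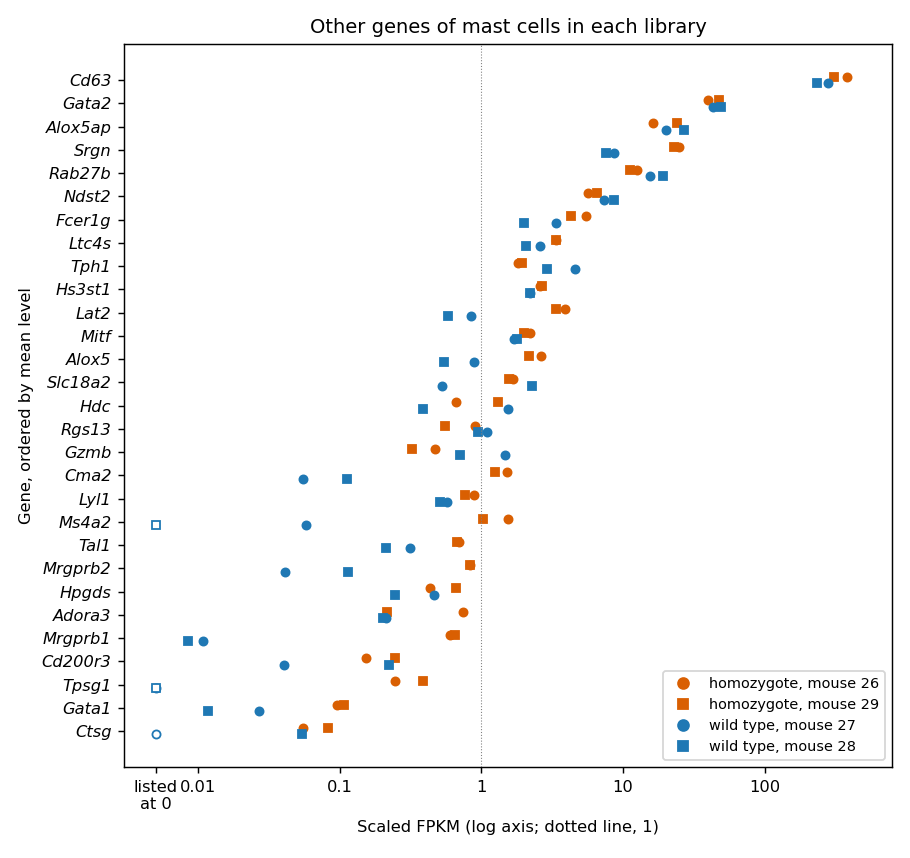
Scaled FPKM (log axis) of the 29 other mast cell genes above 0 in some library, ordered by mean level, with homozygotes in orange above wild types in blue and open symbols for values listed at 0. Ms4a2, Cma2, Mrgprb1, Mrgprb2 and Lat2 show homozygotes far to the right of wild types, while Gata2 and Hdc overlap.

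Neighbouring proteases of the tryptase and chymase loci were mostly near 0. Of 18 such genes that are not members, 2 were tested, and by limma 0 were called in either direction (0 higher and 1 lower at an unadjusted p under 0.05): Prss32 at -0.66 (adjusted p = 0.155) and Gzmc at -0.27 (adjusted p = 0.772). Mcpt9, Gzmf, Gzmg, Gzmn and Prss29 were listed at 0 in all 4 libraries. Of the 13 above 0 in some library, both homozygotes lay above both wild types in 8, among them Cma2 and Tpsg1, where 22.1% of all such rows did. Mcpt8, Gzmd and Prss33 are among the 8 at levels of at most 0.0231 scaled FPKM. Both homozygotes lay below both wild types in 2 of the 13, Gzmb and Prss32, where 26.4% of all such rows did. The authors' deposited table calls Prss32 lower (q = 0.0364), and Gzmc was called lower without wild-type mouse 28 (-0.84, limma adjusted p = 0.0171).

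Among 21 growth factors, cytokines and receptors that act on mast cells, 3 of 10 tested genes rose by limma and 0 fell. The shares over all genes tested were 4.65% and 3.00%. Counts at an unadjusted p under 0.05 were 3 and 0. Kitl, which codes for the ligand of Kit, rose to 33.4 and 25.9 scaled FPKM in homozygotes, against 7.83 and 9.68 in wild types (log2 difference 1.65, SE 0.165, limma adjusted p = 0.00471). Its receptor gene, Kit, differed by 0.42. Tgfb1, a cytokine with many cell sources and targets, rose by 1.85 (SE 0.142, adjusted p = 0.00201). Crlf2, a subunit of the receptor for thymic stromal lymphopoietin, rose by 0.61 (SE 0.108, adjusted p = 0.0291), a call lost without a filter on low values (0.058), without mouse 26 (0.312) and without mouse 29 (0.157). Il33, the ligand of Il1rl1, was at 17.5 and 14.7 scaled FPKM in homozygotes, against 13.5 and 14.8 in wild types (0.17, adjusted p = 0.533). The cytokine genes Il3, Il9 and Il13 were listed at 0 in all 4 libraries.

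Of 19 tested genes of Fc epsilon receptor and Kit signalling, 5 were higher and 3 lower by limma at an unadjusted p under 0.05. At the adjusted threshold 2 rose and 0 fell, where 4.65% and 3.00% of all genes tested did. These were Lat2, already described, and the adaptor gene Lcp2, at 3.09 and 3.51 scaled FPKM in homozygotes, against 1.41 and 0.595 in wild types (log2 difference 1.13, SE 0.215, adjusted p = 0.0365). The Lcp2 call was lost with a pseudocount of 0.1 (0.056), without a filter (0.094), without mouse 26 (0.079) and without mouse 29 (0.120). The phosphatase gene Inpp5d gave 0.57 (limma adjusted p = 0.0879) and 0.58 without wild-type mouse 27. It was called higher in the authors' deposited table (q = 1.53e-06). Its wild-type mean was 0.709 scaled FPKM, so Inpp5d, like Lat2, passed the filter on low values through the homozygotes alone. The median over the 19 was 0.07.

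Of 18 tested genes of granule storage and release, 5 were higher and 2 lower by limma at an unadjusted p under 0.05. At the adjusted threshold 3 rose and 0 fell, where 4.65% and 3.00% of all genes tested did. Besides Srgn they were Ctsc and Ext1. Ctsc codes for cathepsin C, which activates granule proteases in mast cells and other leukocytes, and it rose to 228 and 182 scaled FPKM in homozygotes, against 46.4 and 33.4 in wild types (log2 difference 2.34, SE 0.20, adjusted p = 0.00279). Ext1, a heparan sulfate polymerase gene used by most cells, rose by 0.77 (SE 0.118, adjusted p = 0.0197), a call lost without mouse 26 (0.127) and without mouse 29 (0.143). In prostaglandin and leukotriene synthesis Alox5 rose and Pla2g4a, a phospholipase that frees arachidonic acid, fell by 0.72 (SE 0.125, adjusted p = 0.0289), out of 9 tested. The Pla2g4a call was lost with unscaled FPKM (0.053), without a filter (0.068), without mouse 26 (0.232) and without mouse 29 (0.119). Ptgds, a prostaglandin D synthase gene, gave -1.53 (adjusted p = 0.0815). It was called lower without wild-type mouse 27 (-0.9998, 0.0203), without wild-type mouse 28 (-2.07, 0.00204) and in the authors' deposited table (q = 3.7e-05).

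Among reported substrates and inhibitors of mast cell proteases 2 of 12 tested genes rose and 0 fell by limma. The shares over all genes tested were 4.65% and 3.00%. Counts at an unadjusted p under 0.05 were 4 and 3. Serpina3n, an inhibitor of chymotrypsin-like proteases, rose by 1.53 (SE 0.146, adjusted p = 0.0041). Edn1, which codes for endothelin 1, a peptide that mast cell proteases can degrade, rose by 0.92 (SE 0.160, adjusted p = 0.0284), a call lost with unscaled FPKM (0.059), without a filter (0.081), without mouse 26 (0.126) and without mouse 29 (0.114). Fn1, the fibronectin gene, gave -0.90 (adjusted p = 0.0677). It was called lower without wild-type mouse 27 (-1.21, 4.58e-04), without wild-type mouse 28 (-0.59, 0.0225) and in the authors' deposited table (q = 9.23e-07).

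Markers of other blood cells were read beside these results, and their part in them was not tested. The basophil list, without Fcer1a, summed to 3.12 and 2.67 scaled FPKM in homozygotes, against 1.96 and 2.50 in wild types. Its defining proteases were near 0: Mcpt8 was at 0.0231 and 0.022 in homozygotes and listed at 0 in both wild types, and Prss34 did not exceed 0.0695 in any library. The eosinophil list summed to 0.634 and 0.816 in homozygotes, against 2.85 and 2.60 in wild types, with Prg2 listed at 0 throughout. The difference lay in Ear1, at 0.0904 and 0.0585 in homozygotes, against 1.24 and 1.31 in wild types, and in Ear2. Ear2 was at 0.162 and 0.160 in homozygotes, against 1.13 and 1.09 in wild types. Epx, Siglec5, Ccr3 and Il5ra overlapped between genotypes. The neutrophil list summed to 1.25 and 2.85 in homozygotes, against 1.62 and 1.11 in wild types, with Camp listed at 0 throughout. The T and NK cell list summed to 4.65 and 4.96 in homozygotes, against 6.62 and 3.67 in wild types, and the B and plasma cell list to 6.55 and 3.49 in homozygotes, against 6.71 and 2.85 in wild types. In neutrophils and lymphocytes the sums overlapped between genotypes. The proteases were chosen with this contrast known, so the size of their difference is no measure for these lists.

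Macrophage markers summed to 93.7 and 82.3 scaled FPKM in homozygotes, against 76.2 and 56.1 in wild types. By limma 1 of 9 rose and 0 fell, where 4.65% and 3.00% of all genes tested did. Counts at an unadjusted p under 0.05 were 2 and 0. Cd14 rose (log2 difference 1.64, SE 0.10, adjusted p = 9.86e-04). Cd68 was at 5.86 and 5.52 in homozygotes, against 4.15 and 3.12 in wild types (0.54, adjusted p = 0.0965). Csf1r was at -0.02 and Mrc1 at -0.20 (adjusted p = 0.428). Of 6 pan-leukocyte genes 1 rose and 0 fell by limma (2 and 0 at an unadjusted p under 0.05). The gene that rose was Laptm5 (0.85, SE 0.121, adjusted p = 0.0152), a call lost without mouse 26 and without mouse 29. The leukocyte common antigen gene Ptprc gave 0.38 (limma adjusted p = 0.178). Ptprc had a wild-type mean of 0.962 scaled FPKM and passed the filter on low values through the homozygotes alone. The pan-leukocyte list summed to 421 and 531 scaled FPKM in homozygotes, against 1058 and 477 in wild types, most of it Cd52, at 340 and 453 in homozygotes, against 995 and 411 in wild types. The other 5 genes summed to 80.8 and 78.2 in homozygotes, against 62.9 and 65.7 in wild types, and were higher in both homozygotes as a sum; Cd52 was set apart after its values were seen. Cells other than mast cells also carry Kit or Il1rl1. Melanocyte markers summed to 2.71 and 2.35 in homozygotes, against 0 and 1.33 in wild types, with Tyr and Mlana listed at 0 in all libraries and nearly all of the sum from Pmel, at 2.69 and 2.30 in homozygotes, against 0 and 1.31 in wild types. Pmel gave 1.2 (limma adjusted p = 0.147), 0.60 without wild-type mouse 27 and 1.79 without wild-type mouse 28. It was called higher in the authors' deposited table (q = 0.0258). The wild-type mean of Pmel was 0.655 scaled FPKM, so it passed the filter on low values through the homozygotes alone. Markers of interstitial cells of Cajal summed to 80.8 and 82.1 in homozygotes, against 41.7 and 63.9 in wild types, and those of group 2 innate lymphoid cells to 58.9 and 84.2 in homozygotes, against 58.6 and 63.2 in wild types. The melanocyte and Cajal sums were higher in both homozygotes, as Kit was, but each is in effect the value of a single gene, and their part in the Kit values was not tested. In the Cajal list that gene is Ano1, also of epithelium, at 79.0 and 80.2 in homozygotes, against 40.0 and 61.5 in wild types (0.67, adjusted p = 0.139). Ano1 gave 0.37 without wild-type mouse 27 and was called higher at 0.98 without wild-type mouse 28 (0.00257) and in the authors' deposited table (q = 1.53e-13). The other Cajal markers did not follow it: Etv1 gave -0.05, Thbs4 overlapped between genotypes, and Hcn4 was lower in both homozygotes, at 0.0595 and 0.0207, against 0.0718 and 0.144 in wild types. Gata3 of innate lymphoid cells and epithelium gave 0.20 (adjusted p = 0.634). All 10 prostate epithelial markers were present in all libraries, and by limma 0 of 10 were called (3 higher and 0 lower at an unadjusted p under 0.05). An example is Msmb, which codes for a secreted prostate protein (2.19, adjusted p = 0.0626). Its levels were 28100 and 14924 in homozygotes, against 4240 and 4729 in wild types. The epithelial list summed to 43719 and 27270 in homozygotes, against 17412 and 15395 in wild types, nearly all of it Pbsn and Msmb. Both homozygotes lay above both wild types in 4 of the 10 and below them in 1. Of all rows above 0 in some library, 22.1% lay above and 26.4% below in this way. Msmb was called higher under 5 alternatives, with unscaled FPKM (0.0346), quantile normalization (0.0065), a minimum mean of 5 (0.0375), no trend in the variance prior (0.0143) and a robust trend (0.022).

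**Figure D5:**
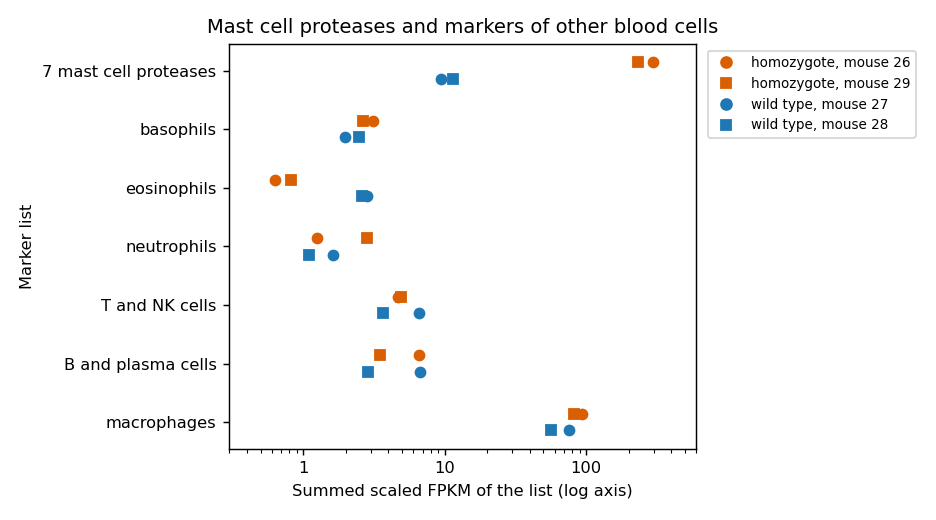
Summed scaled FPKM (log axis) of the 7 mast cell proteases and of marker lists of other blood cells in each library, homozygotes in orange above wild types in blue. The proteases sum to 299 and 234 in homozygotes and to 9.37 and 11.4 in wild types, and each other list differs less between genotypes. The proteases were chosen with this contrast known, so nothing is read from that.

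At 1 FPKM or more, each of the 4 libraries listed 11541 to 11854 genes. Of the 11762 genes tested, 547 rose and 353 fell by limma, and both numbers depended on every library. They were 216 and 139 without homozygous mouse 26, 247 and 147 without homozygous mouse 29, 995 and 1033 without wild-type mouse 27, and 976 and 654 without wild-type mouse 28. With a single mouse left out, the difference of Tpsab1 lay between 5.61 and 5.99 and that of Mcpt4 between 2.71 and 3.07 on the log2 scale.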

How the data were processed

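RNA was measured in prostate lobes of 4 mice, grouped by the genotype in their labels. The deposited values were taken as FPKM from their distribution, since the file headers state no unit. Per the submitters' processing notes, reads went through TopHat 1.3 and Cufflinks 1.3 on mm10; no source states their settings, gene models or strand use. The authors' deposited fold changes, a score on a log2 scale, and their deposited p-values and q-values come from a tool that is not given here. A code of 99999 and NA cells were treated as missing. The lowest FPKM of genes with 1 transcript put each library at roughly 45.3 to 52.0 M fragments, an estimate.

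FPKM were divided by median-of-ratios factors (0.921 to 1.04). Genes whose mean scaled FPKM reached 1 were fitted as log2(scaled FPKM + 1) with limma 3.58.1 in R 4.3.3. The fit used eBayes with a trend and a two-sided test, adjusted by Benjamini-Hochberg over 11762 genes with a threshold of 0.05, and its 2 residual degrees of freedom limit precision. It was tested on simulated data. SE of members come from the spread within genotypes, and of other genes from limma. Starts were raised by 1. Alignments used Biopython 1.88. The members and the 18 lists were chosen with earlier results of these data known; Vamp7 and Ly6g of these lists were not analysed here. Named by rule were all members, the 5 genes nearest to Tpsab1 and, from each list, the 3 tested genes with the largest absolute moderated statistic; other names were chosen after their values were seen. Alternatives were other scalings, pseudocounts, filters and variance priors, each library left out, and the authors' comparison.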

Additional observations from a re-analysis of the deposited data

How the results depend on the processing

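All 10 members kept the sign of their difference, and 8 kept one of at least 1 on the log2 scale, under each alternative scaling, pseudocount and left-out library; the authors' deposited comparison also gives 8, counting Mcpt2, whose fold is coded there as infinite. Genes called lower numbered 185 with unscaled FPKM and 231 at a minimum mean of 5. The authors' deposited table holds 1006 genes called higher and 1009 called lower. Without each library in turn, 216 to 995 genes were called higher and 139 to 1033 lower. Among other mast cell genes, 9 were called higher without a filter, 1 at a minimum mean of 5, 8 in the authors' deposited table (and 2 lower) and 2 to 5 with a library left out (0 to 1 lower). Their median turned to -0.15 at a minimum mean of 5, where fewer genes are tested, and ran from 0.17 to 0.24 with a library left out. Small uncalled differences changed sign: Etv1 to 0.023 with quantile normalization, and, over left-out libraries, Etv1 (-0.17 to 0.062), Gata3 (-0.054 to 0.46), Gzmc (-0.84 to 0.32), Igj (-0.37 to 0.87) and Rora (-0.10 to 0.39). The cause was not tested. Leaving out a mouse leaves 1 in its genotype, which is then assumed to vary like the other genotype. The labels name no pairing of mice between the 2 genotypes, so no paired analysis was run. Depth limits Mcpt1 and the wild-type values of Fcer1a, which rest on a few fragments.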
